A study of Mus musculus with 4 samples.

Results

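The transcription factor gene Nfe2l2, which encodes NRF2, and 7 of its targets outside the glutathione S-transferases were followed in NIH 3T3 cells, a mouse fibroblast line, after knockdown of selenoprotein T. The members were chosen by name: Nfe2l2, Hmox1, Gclm, Gsr, Nqo1, Aldh3a1, Ephx1 and Abcc1. All 8 had a value on every array, among 4754 genes that did. Each of 4 two-colour arrays set cells stably carrying a short interfering RNA construct in the pU6-m3 vector, labelled with Cy5, against cells carrying the empty pU6-m3 vector, labelled with Cy3. Construct siSelT-1 covers nucleotides 205 to 224 of the Selt mRNA and siSelT-5 nucleotides 971 to 989. Each construct was measured on 2 arrays from different cultures. All cells, vector controls included, grew in DMEM with 10% serum, 150 µg/ml hygromycin B and 100 nM sodium selenite. Whether the transfected cells were pools or single clones, and whether arrays shared vector RNA, is not given in the sources used here. Selt itself was not analysed here, so the depth of the knockdown is not shown.

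NRF2 is held at a low level in unstressed cells by KEAP1, an adaptor that brings it to the CUL3 ubiquitin ligase for degradation. When electrophiles or oxidants modify KEAP1, NRF2 accumulates, pairs with small MAF proteins and binds antioxidant response elements near genes for glutathione supply, quinone and aldehyde detoxification, heme breakdown and efflux of conjugates. Since much of this control acts on the protein, the Nfe2l2 transcript is not itself a measure of NRF2 activity. Selenoprotein T is a thioredoxin-like protein of the endoplasmic reticulum.

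A start site window (GRCm38.p6) was at hand for 4 of the 8 members, Nfe2l2, Gclm, Ephx1 and Nqo1. Hmox1, Gsr, Abcc1 and Aldh3a1 had none in the sources used here. The 4 are shown because they include a pair of target genes that rose with both constructs, Gclm and Ephx1, a standard target that did not pass, Nqo1, and NRF2's own gene. Each runs 5′ to 3′ toward the start site, with capitals for the antioxidant response element core TGACNNNGC on either strand.
Nfe2l2, chr2:75704664-75704913, minus strand: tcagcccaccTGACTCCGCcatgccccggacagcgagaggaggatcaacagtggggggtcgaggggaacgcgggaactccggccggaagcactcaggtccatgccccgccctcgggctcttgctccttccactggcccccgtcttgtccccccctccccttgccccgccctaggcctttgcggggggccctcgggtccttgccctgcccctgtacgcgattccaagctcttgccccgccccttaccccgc
Gclm, chr3:122245307-122245486, plus strand: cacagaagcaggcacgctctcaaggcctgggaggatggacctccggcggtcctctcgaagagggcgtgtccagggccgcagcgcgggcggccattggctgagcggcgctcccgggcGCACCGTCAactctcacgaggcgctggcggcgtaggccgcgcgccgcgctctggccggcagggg
Ephx1, chr1:181017570-181017819, minus strand: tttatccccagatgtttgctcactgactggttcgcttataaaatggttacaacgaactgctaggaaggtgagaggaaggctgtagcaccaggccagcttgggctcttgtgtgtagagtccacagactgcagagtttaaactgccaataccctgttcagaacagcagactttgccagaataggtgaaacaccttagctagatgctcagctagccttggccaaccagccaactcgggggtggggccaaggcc
Nqo1, chr8:107403206-107403455, minus strand: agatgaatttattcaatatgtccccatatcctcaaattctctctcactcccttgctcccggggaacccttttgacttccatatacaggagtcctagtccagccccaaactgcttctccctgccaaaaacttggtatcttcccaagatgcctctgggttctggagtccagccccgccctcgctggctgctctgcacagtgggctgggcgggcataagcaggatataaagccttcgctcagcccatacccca
The windows of Nfe2l2, Ephx1 and Nqo1 hold the 250 bases before the start, and that of Gclm the outer 180 of these, since a longer RefSeq transcript begins in the rest. Nfe2l2 had a match, TGACTCCGC, whose first base lies 240 bases before the start. Gclm had 1 on the other strand, GCACCGTCA, whose first base lies 134 bases before it. Ephx1 and Nqo1 had no match in these windows. The core occurs in 10.2% of 32851 windows of 250 bases and in 6.65% of the same windows cut to their outer 180 bases. The AP-1 site TGANTCA occurred in none of the 4 stretches, against 6.75% of windows of 250 bases. The xenobiotic response element core GCGTG occurred in Gclm alone, at 2 places, against 20% of windows of 180 bases. So the gene that fell and a gene that rose both held the core, and a gene that rose and the gene that did not pass both lacked it. A match is a description of letters and not a binding site.

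All values are log2 ratios of knockdown over vector and not levels, so members can be set against each other in how far they moved and not in how abundant they were. Of 22534 probes, 7689 and 9232 had a ratio on the arrays of siSelT-1, and 20268 and 18361 on those of siSelT-5. The tested genes stood above 0, at a median of 0.14 with siSelT-1, 0.37 with siSelT-5 and 0.25 over both. Centred values are therefore given where they change a call of a named gene over both constructs. They are taken from the median of the 7038 probes measured on every array, which lay at 0.14 for siSelT-1 and 0.39 for siSelT-5. With siSelT-1 the median of every probe holding a ratio was 0.18 in replicate 1 and 0.06 in replicate 2. With siSelT-5 that median was below 0, at -0.22 in replicate 1 and -0.19 in replicate 2. Centring on these medians was not tested, so calls made only after centring hold against the 7038 probes alone. Over genes, ratios were also spread more widely with siSelT-5. The SD was 0.55 and 0.62 on its arrays, against 0.39 and 0.36 on those of siSelT-1. Of 12 fibroblast markers 8 were tested. Over both constructs 4 rose and 3 fell, or 50% and 37.5%, beside 45.7% and 8.04% of all genes. After centring 2 were higher and 4 lower, beside 20.5% and 21.9% of all genes. Postn lay apart between the constructs, at -0.75 and -0.82 against 1.72 and 1.55 (limma, adjusted p = 0.0219). None of 6 epithelial markers and 1 of 7 macrophage markers, Lyz2 at -0.20, had a value on all arrays. Ratios cannot show whether a marker was expressed. The markers' part in the members' ratios was not tested, and in such bulk RNA a change in the share of a kind of cell and a change in RNA per cell cannot be told apart.

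Over both constructs together, 4 target genes rose, Hmox1, Aldh3a1, Ephx1 and Gclm, while the transporter gene Abcc1 and Nfe2l2 fell, and Gsr and Nqo1 did not pass. The 6 passed in limma at an adjusted p of 0.00161 to 0.0119, where 53.7% of all tested genes passed, 45.7% as higher and 8.04% as lower. Since more genes passed than did not, 6 of 8 members is read against that background and not as a result of its own. In order of their means the members ran Hmox1, Aldh3a1, Ephx1, Gclm, Nqo1, Gsr, Nfe2l2 and Abcc1. Neighbours in that order overlapped over their arrays, except between Gclm, whose lowest array stood at 0.61, and Nqo1, whose highest stood at 0.19. The median of the 8 was 0.34, against 0.25 for all genes. After centring the same 4 were higher and the other 4, Gsr and Nqo1 included, were lower at an adjusted p of 0.0043 to 0.0407, where 42.4% of genes passed, 20.5% as higher and 21.9% as lower. Without siSelT-1 replicate 1 the 6 members kept their direction but lost their calls, as did every other gene that had passed.

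**Figure D1:**
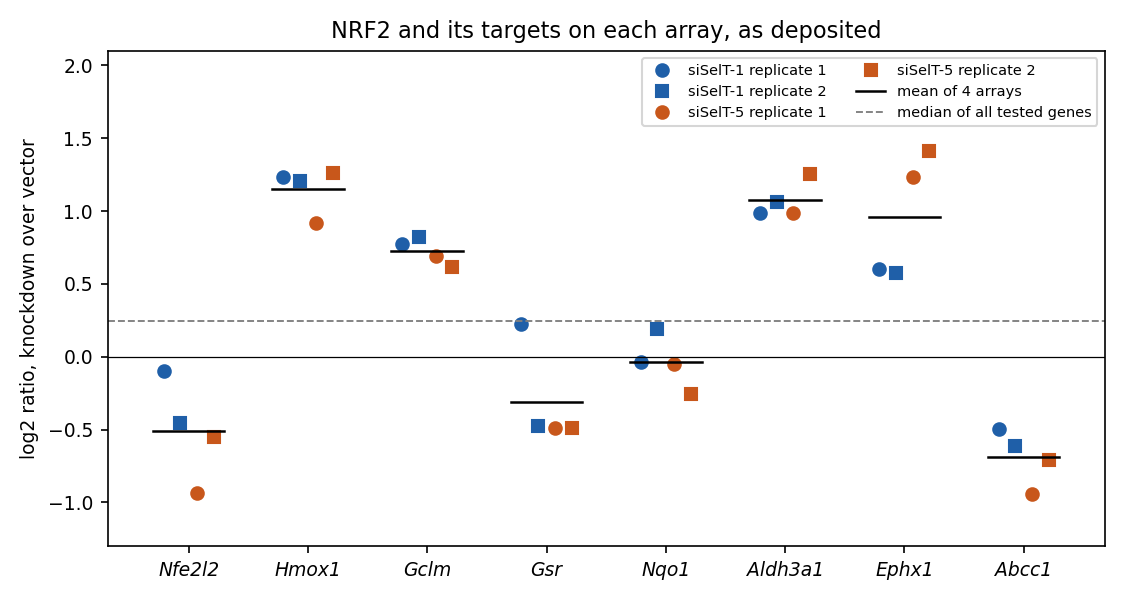
Log2 ratio of knockdown over vector (y axis) of NRF2's gene and 7 targets (x axis) on each of 4 arrays, as deposited; points are arrays, black bars the mean of 4 and the dashed line the median of all tested genes at 0.25. Hmox1, Gclm, Aldh3a1 and Ephx1 lie above that line on 4 of 4 arrays, and Nfe2l2 and Abcc1 lie below 0 on 4 of 4.

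Nfe2l2 (Entrez Gene 18024) stood at -0.09 and -0.45 on the siSelT-1 arrays and at -0.94 and -0.55 on the siSelT-5 arrays. It was below vector on 4 of 4 arrays, and the siSelT-5 arrays lay below both siSelT-1 arrays. The mean was -0.51 ± 0.35 (SD, n = 4), or 1.42-fold lower (limma, 95% interval -0.78 to -0.24, adjusted p = 0.0119), and this placed it 180th from the bottom of 4754 genes. For siSelT-5 alone it fell by 0.74 (adjusted p = 0.0105), and for siSelT-1 alone it stood at -0.27 and did not pass (adjusted p = 0.259). The difference between constructs, 0.47 with a 95% interval of -0.07 to 1.01, did not pass either (adjusted p = 0.183). Without siSelT-5 replicate 2 that difference was 0.66 and passed (adjusted p = 0.0313), as did 1789 of all genes. The call over both constructs was also lost without siSelT-1 replicate 2, at -0.42 (adjusted p = 0.11).

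The Nfe2l2 value is the mean of 2 probes that gave different readings with siSelT-5. The first probe stood at -0.18 and -0.46 with siSelT-1 and at -1.70 and -0.98 with siSelT-5. The second stood at -0.01 and -0.45 with siSelT-1 and at -0.17 and -0.12 with siSelT-5. With siSelT-1 the probes were alike, and with siSelT-5 the first read a 2.53-fold lower ratio while the second lay close to 0. Fitted as single probes, the first passed over both constructs (limma, -0.83, adjusted p = 0.00530) and the second did not (-0.19, adjusted p = 0.171), where 52.7% of 6251 probes passed. Centred, the second passed as lower too (-0.45, adjusted p = 0.0158). Among 751 genes with 2 tested probes, the probes' siSelT-5 means lay a median of 0.41 apart, against 1.19 for Nfe2l2, and 6.13% of them lay at least as far apart. The fall of Nfe2l2 with siSelT-5 as deposited therefore rests on 1 of its 2 probes.

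**Figure D2:**
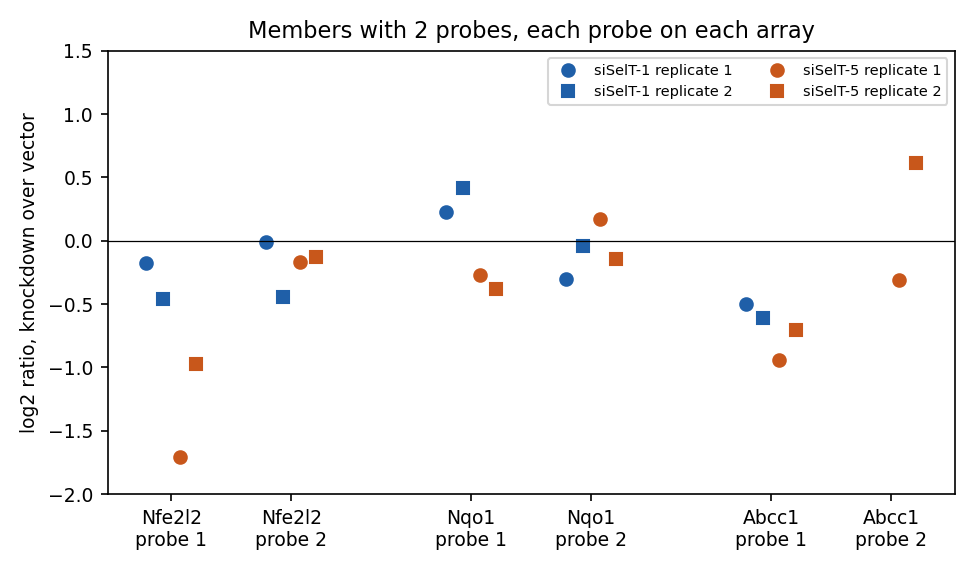
Log2 ratio of knockdown over vector (y axis) for each probe (x axis) of the 3 members with 2 probes, on each array with a value; points are arrays. The first Nfe2l2 probe reaches -1.70 on siSelT-5 replicate 1 while the second stays at -0.17, and the second Abcc1 probe has values on the siSelT-5 arrays only.

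Hmox1 (Entrez Gene 15368), the inducible heme oxygenase that breaks heme down to biliverdin, iron and carbon monoxide, had the highest mean of the members. It stood at 1.23 and 1.21 on the siSelT-1 arrays and at 0.92 and 1.26 on the siSelT-5 arrays. All 4 arrays lay close together, and the constructs overlapped. The mean was 1.15 ± 0.16 (SD, n = 4), or 2.23-fold, and ranked 38th of 4754 genes (limma, 95% interval 0.93 to 1.38, adjusted p = 0.00161). It rose with siSelT-1 (1.22, adjusted p = 0.0222) and with siSelT-5 (1.09, adjusted p = 0.00243). The constructs differed by 0.13, with a 95% interval of -0.32 to 0.58 (adjusted p = 0.63). Within each construct its place differed, since it ranked 21st with siSelT-1 and 303rd with siSelT-5, where the ratios of the tested genes were wider and higher.

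Gclm (Entrez Gene 14630) encodes the modifier subunit of glutamate-cysteine ligase, which carries out the first step of glutathione synthesis. It stood at 0.77 and 0.82 with siSelT-1 and at 0.69 and 0.61 with siSelT-5. The 4 arrays lay within a narrow range, those of siSelT-1 above those of siSelT-5. It rose over both constructs to 0.73 ± 0.09 (SD, n = 4), or 1.65-fold (limma, adjusted p = 0.00189), and with each construct alone (adjusted p = 0.0294 and 0.00514). Against all genes it ranked 99th with siSelT-1 but 1335th with siSelT-5, and centred it stood at 0.66 and 0.26. The centred siSelT-5 value did not pass (adjusted p = 0.0922).

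The catalytic subunit of the same enzyme, Gclc, was not tested, since its probe gave ratios with siSelT-5 alone, at -0.75 and -1.14. Probes of that kind stood low in general. Of 7460 probes with values on both siSelT-5 arrays and on neither siSelT-1 array, 6166 had a mean below 0, with a median of -0.63, whereas probes on all 4 arrays had a siSelT-5 median of 0.38. Gclc, at a mean of -0.94, lay at the 32.9th percentile of such probes. Its ratio thus lay within the range most such probes showed.

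Gsr (Entrez Gene 14782), the glutathione reductase that returns oxidised glutathione to its reduced form with NADPH, did not pass. It stood at 0.22 and -0.48 with siSelT-1 and at -0.49 and -0.49 with siSelT-5. Of its arrays 3 agreed closely and siSelT-1 replicate 1 lay apart, above 0. The mean was -0.31 ± 0.35 (SD, n = 4; limma, adjusted p = 0.0922), and without siSelT-1 replicate 1 it was -0.48 (adjusted p = 0.0704). After centring it passed as lower, at -0.57 (adjusted p = 0.0170). Gsr and Gclm, which both serve the glutathione pool, thus stood on opposite sides of the median gene on 3 of 4 arrays as deposited and after centring.

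Nqo1 (Entrez Gene 18104), which encodes NAD(P)H quinone dehydrogenase 1 and is among the most used reporters of NRF2, stood near 0 as deposited. Its gene values were -0.04 and 0.19 with siSelT-1 and -0.05 and -0.26 with siSelT-5. Both siSelT-1 arrays lay above both siSelT-5 arrays, though only just at the nearest pair, -0.04 and -0.05. The mean was -0.04 ± 0.18 (SD, n = 4; limma, 95% interval -0.26 to 0.18, adjusted p = 0.734). That interval leaves out a rise of the size seen for Gclm, 0.73. The probes differed in pattern. The first stood at 0.23 and 0.42 with siSelT-1 and at -0.27 and -0.38 with siSelT-5, and the second at -0.30 and -0.04 with siSelT-1 and at 0.18 and -0.14 with siSelT-5. The first thus lay on opposite sides of 0 in the 2 constructs and the second did not. As deposited neither passed over both constructs as a single probe (limma, adjusted p = 0.999 and 0.546). After centring the second passed as lower (limma, -0.34, adjusted p = 0.0419) and the first did not (adjusted p = 0.0538). The gene value was then lower too, at -0.31 (limma, adjusted p = 0.0407).

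Aldh3a1 (Entrez Gene 11670), an aldehyde dehydrogenase that oxidises medium-chain and aromatic aldehydes and is a target of the aryl hydrocarbon receptor as well as of NRF2, rose in step on all arrays. It stood at 0.99 and 1.06 with siSelT-1 and at 0.99 and 1.26 with siSelT-5. The constructs overlapped and the mean was 1.07 ± 0.13 (SD, n = 4), or 2.1-fold, which ranked 55th of 4754 genes (limma, adjusted p = 0.00161). It passed with each construct alone (adjusted p = 0.0239 and 0.00217). The difference between them was -0.10, with a 95% interval of -0.52 to 0.33. Aldh3a2, its nearest measured relative, stood at 0.14 ± 0.32 and did not pass (adjusted p = 0.242).

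Ephx1 (Entrez Gene 13849), the microsomal epoxide hydrolase, was the member whose constructs lay furthest apart as deposited, though not after centring. It stood at 0.61 and 0.57 with siSelT-1 and at 1.24 and 1.41 with siSelT-5. The groups did not overlap, and both were above 0. It rose over both constructs to 0.96 ± 0.43 (SD, n = 4), or 1.94-fold (limma, adjusted p = 0.00161), by 1.5-fold with siSelT-1 (adjusted p = 0.0354) and by 2.5-fold with siSelT-5 (adjusted p = 0.00202). The difference, -0.73 with a 95% interval of -1.13 to -0.34, had a p of 0.00421 before adjustment and missed the threshold over all genes (adjusted p = 0.0557), where 3 genes or 0.063% passed. It was -0.82 (adjusted p = 0.00789) without siSelT-5 replicate 1 and -0.65 (adjusted p = 0.0185) without siSelT-5 replicate 2, fits in which 1796 and 1789 of all genes passed. Centring, which takes out the higher siSelT-5 ratios of the tested genes, brought it to -0.48 (limma, adjusted p = 0.145). In size that was less than Nfe2l2 at 0.72, Gsr at 0.61 and Abcc1 at 0.52, and level with Nqo1 at 0.48, none of which passed. The siSelT-1 value of Ephx1 alone then did not pass (limma, 0.45, adjusted p = 0.0642).

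Abcc1 (Entrez Gene 17250) encodes the multidrug resistance protein MRP1, which exports glutathione conjugates. It stood at -0.50 and -0.61 with siSelT-1 and at -0.94 and -0.71 with siSelT-5. All arrays were below vector, and the siSelT-5 arrays lay below those of siSelT-1. It fell over both constructs to -0.69 ± 0.19 (SD, n = 4), or 1.61-fold lower, and stood 70th from the bottom (limma, adjusted p = 0.00241). It also fell with siSelT-1 alone (-0.55, adjusted p = 0.0415) and with siSelT-5 alone (-0.83, adjusted p = 0.00363). A second probe, with no siSelT-1 value, stood at -0.31 and 0.62 with siSelT-5, at the 87.8th percentile of such probes, so that a fall was read by the tested probe only.

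With siSelT-1 alone 5 members passed, Hmox1, Aldh3a1, Gclm and Ephx1 as higher and Abcc1 as lower, against 13.7% of all genes, 10.3% as higher and 3.37% as lower. With the replicate number as a block only Hmox1 passed (adjusted p = 0.0483), with the other 4 at 0.0518 to 0.0627, where 35 genes passed in place of 650. Without siSelT-1 replicate 1, and again without siSelT-1 replicate 2, these 5 members lost their calls, as did every other gene that had passed. With siSelT-5 alone 6 members passed, the same 5 and Nfe2l2, against 53.9% of all genes, 47.6% as higher and 6.29% as lower. Centred, 4 members passed with siSelT-1, Hmox1, Aldh3a1 and Gclm as higher and Abcc1 as lower, against 8.90% of genes, 3.83% as higher and 5.07% as lower. With siSelT-5 7 passed, all but Gclm, 3 as higher and 4 as lower, against 39.2% of genes, 19.2% as higher and 20.0% as lower. Between the constructs 0 members passed in limma, as deposited and after centring, against 0.063% of genes; before adjustment 1 member, Ephx1, was under 0.05 as deposited, beside 35.7% of all genes, and 6 were after centring, beside 25.8%.

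**Figure D3:**
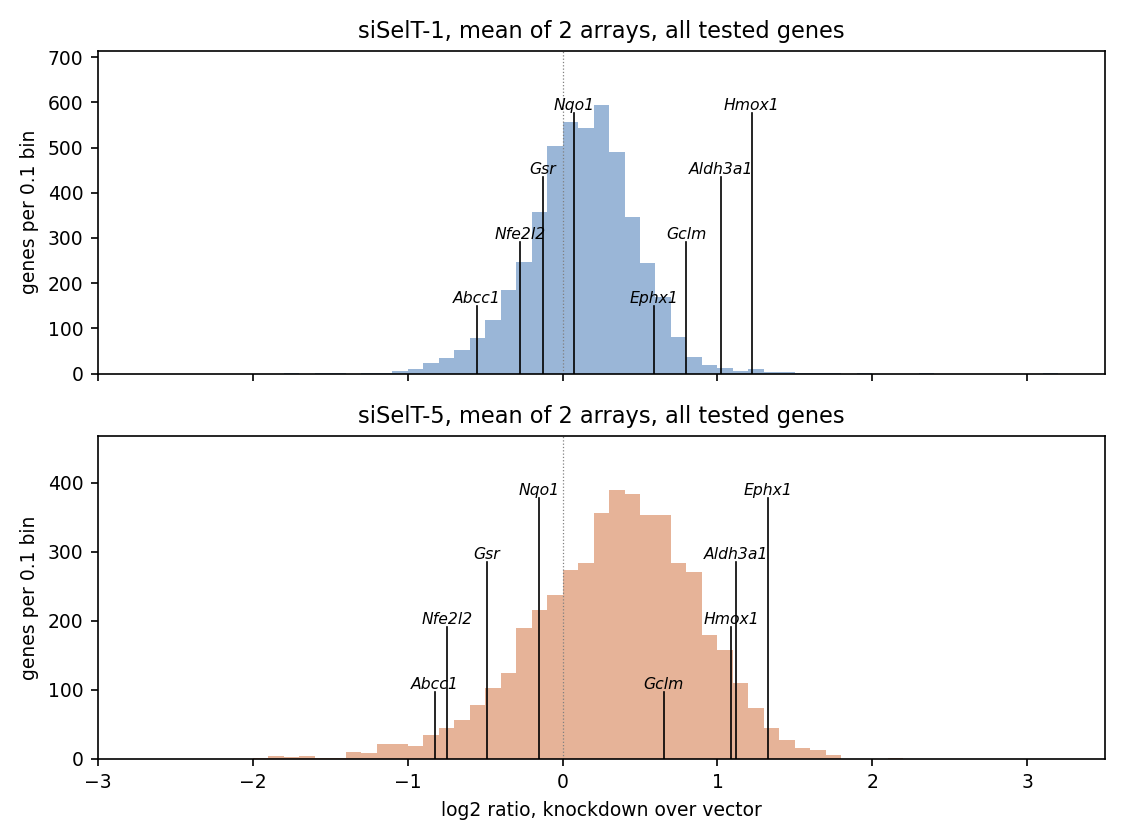
Number of tested genes per bin of 0.1 (y axis) by their mean log2 ratio over 2 arrays (x axis), for siSelT-1 above and siSelT-5 below; black lines mark the members. Hmox1, Aldh3a1 and Gclm stand in the sparse upper tail with siSelT-1, at 1.22, 1.02 and 0.80, while with siSelT-5 Gclm, at 0.65, lies within the bulk of genes.

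The genes whose 4 ratios were nearest to those of Nfe2l2, by Euclidean distance over the arrays among all tested genes, were St3gal3 (distance 0.07), Lrfn4 (0.18), Timm21 (0.23) and Sdhaf2 (0.24). Those nearest to Hmox1 were Pigp (0.25), Kcnk4 (0.26), Aldh3a1 (0.29) and Fam178b (0.31). Aldh3a1 was thus among the 4 genes closest to Hmox1. With 4 arrays such distances describe these arrays alone.

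Beyond the members, 125 further genes of the pathway were listed by role, of which 103 had a probe and 56 were tested. Over both constructs 29 rose and 3 fell, with a median of 0.33 against 0.25 for all genes. This is 51.8% higher and 5.36% lower, beside 45.7% and 8.04% of all genes. After centring 18 were higher and 8 lower, beside 20.5% and 21.9%. Without siSelT-1 replicate 1 the calls among the 56 were all lost, as were those of every other gene. When siSelT-1 replicate 2 was left out 18 passed, or 32.1%, beside 18.4% of all genes. In each list by role, counts as deposited stand beside those same shares of all genes, and counts after centring beside 20.5% and 21.9%.

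Of 10 tested regulators and partners of NRF2, 4 rose and 1, the small MAF gene Mafg, fell, as they did after centring. Mafg fell to -0.35 ± 0.25, just inside the threshold, and passed with neither construct alone (limma, adjusted p = 0.175 and 0.148). Cul3, the scaffold of the ligase that degrades NRF2, stood at 0.09 and 0.10 with siSelT-1 and at 1.23 and 1.19 with siSelT-5. It rose over both constructs (0.65 ± 0.64, SD, n = 4; limma, adjusted p = 0.00214) by its siSelT-5 arrays, while siSelT-1 alone did not pass (adjusted p = 0.556). A further Cul3 probe, measured with siSelT-5 only, stood at -0.08 and -0.70, at the 64.4th percentile of such probes. Park7, whose product DJ-1 stabilises NRF2, rose to 0.95 ± 0.32, Dpp3, a peptidase that binds KEAP1, to 0.77 ± 0.56, and Nfe2l1, the closest measured relative of Nfe2l2, to 0.64 ± 0.15 (adjusted p = 0.00161 to 0.00246). Nfe2l1 and Nfe2l2 thus moved in opposite directions, and this held after centring, at 0.38 and -0.78. Dpp3 rose by its siSelT-5 arrays, at 1.33 and 1.13, while siSelT-1 alone did not pass (limma, adjusted p = 0.175). The repressor partner gene Keap1 had values with siSelT-5 only, at means of -0.57 and -0.60 for its 2 probes, near the median of such probes. Bach1, which represses Hmox1, also had values with siSelT-5 only, at -2.19 and -2. Its mean of -2.09 lay at the 1.01st percentile of such probes, and with no siSelT-1 value it was not tested. The 39 pathway and member probes of this kind ran from Bach1 up to Ggt5 at 1.32, the 99.9th percentile. Their median was -0.57, and 34 had a mean below 0.

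Among genes of glutathione supply, Slc3a2, the heavy chain of the cystine transporter, rose to 0.69 ± 0.22 (SD, n = 4), and the glutaredoxin genes Glrx3 and Glrx5 to 0.74 ± 0.56 and 0.59 ± 0.32. Of 5 tested 3 rose and 0 fell, and after centring 2 were higher and 1 lower, with Glrx5 no longer passing (limma, adjusted p = 0.0779). Glrx, at -0.62 ± 0.76, did not pass as deposited (adjusted p = 0.0642) but was lower after centring (adjusted p = 0.0305). It read -1.75 on siSelT-5 replicate 2 against -0.18 to -0.32 on the others. Glrx5 read 1.08 on siSelT-5 replicate 1 against 0.40 to 0.45 on the others, and did not pass with siSelT-1 alone (limma, adjusted p = 0.139). Glrx3 rose by its siSelT-5 arrays, at 1.21 and 1.26, while siSelT-1 alone did not pass (limma, adjusted p = 0.154). Slc7a11, the light chain of that transporter and an NRF2 target, had values with siSelT-5 only, at -0.41 and -0.09. Its mean lay at the 71.8th percentile of such probes. Of 9 genes that supply NADPH, which Gsr and Nqo1 consume, 5 rose and 0 fell, or 3 and 0 after centring. The pentose phosphate genes Pgls, Pgd and Tkt rose to 0.93 ± 0.34, 0.60 ± 0.10 and 0.51 ± 0.07, with Pgd and Tkt close together on all arrays, and Idh2 rose to 0.73 ± 0.47, though not after centring (limma, adjusted p = 0.0824). Idh2 read 1.44 on siSelT-5 replicate 2 against 0.46 to 0.51 on the others, and did not pass with siSelT-1 alone (limma, adjusted p = 0.189). Me1, the malic enzyme gene regulated by NRF2, read -0.20 ± 0.61 (limma, adjusted p = 0.482). It stood at -1.08 on siSelT-1 replicate 2 against -0.08 to 0.31 on the others.

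Heme and iron genes, which surround Hmox1, moved both ways, with 5 of 10 higher and 2 lower, or 2 and 3 after centring. Slc48a1, the heme transporter HRG1, stood at 0.88 and 0.87 with siSelT-1 and at 1.19 and 1.21 with siSelT-5, and rose to 1.04 ± 0.19 (SD, n = 4; limma, adjusted p = 0.00161). Alad, for the second enzyme of heme synthesis, rose to 0.84 ± 0.31 and Alas1, for its first, to 0.36 ± 0.14, though Alas1 did not pass after centring (adjusted p = 0.356). Fech, for ferrochelatase, which inserts iron in the last step, fell to -0.93 ± 0.50, with all 4 arrays below 0 at -0.77, -0.29, -1.31 and -1.34. With siSelT-1 alone Fech did not pass (limma, adjusted p = 0.0658). Hmox2, the constitutive heme oxygenase, rose to 0.33 ± 0.13 (adjusted p = 0.0236) and stood at 0.07 after centring, where it did not pass (adjusted p = 0.505). Blvrb, one of the biliverdin reductase genes downstream of Hmox1, stood at -0.51 ± 0.54 and did not pass as deposited (limma, adjusted p = 0.0762). It was lower after centring (limma, -0.77, adjusted p = 0.0404), while the other, Blvra, rose to 0.28 ± 0.07 but not after centring. Alas1, Hmox2 and Blvra passed with neither construct alone (limma, adjusted p = 0.0521 to 0.115).

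Of 12 genes of quinone, carbonyl and epoxide metabolism 5 rose and 0 fell, with a median of 0.24, and after centring 3 were higher and 2 lower. Cbr3, a carbonyl reductase gene, stood at 3.19 and 3.15 with siSelT-1 and at 1.84 and 2.49 with siSelT-5, far above the others. Akr1a1, an aldehyde reductase gene, rose to 1.07 ± 0.44 (SD, n = 4), the esterase gene Esd to 0.81 ± 0.08 and Cyb5r3, for cytochrome b5 reductase, to 0.38 ± 0.22. Cyb5r3 did not pass after centring (limma, adjusted p = 0.247), nor with siSelT-1 alone as deposited (also adjusted p = 0.247). A further Esd probe, measured with siSelT-5 only, stood at -0.38 and -0.55, at the 60th percentile of such probes. Akr1b8, an aldose reductase-like gene, read 0.23 ± 0.07 and missed the threshold (limma, adjusted p = 0.0506). The ABC transporter genes Abcc5 and Abcg2 rose to 0.36 ± 0.30 and 0.32 ± 0.33 by their siSelT-5 arrays. With siSelT-1 alone neither passed (limma, adjusted p = 0.528 and 0.845). After centring both stood near 0, at 0.09 and 0.05. Abcc1 was the only one of the 3 tested ABC transporter genes that fell. Of 6 tested thioredoxin and peroxide defence genes 4 rose and 0 fell, or 3 and 1 after centring, with Sod1 at 1.18 ± 0.17, Prdx1 at 0.93 ± 0.31, Mt2 at 0.64 ± 0.17 and Cat at 0.25 ± 0.15. Cat stood at the median gene, and after centring at -0.01 it did not pass (limma, adjusted p = 0.919). With siSelT-1 alone as deposited it did not pass either (limma, adjusted p = 0.373). Srxn1, the sulfiredoxin gene and an NRF2 target, stood at -0.01 ± 0.15 and Txnrd1 at 0.35 ± 0.34, and neither passed as deposited (adjusted p = 0.954 and 0.0628), while Srxn1 was lower after centring (-0.27, adjusted p = 0.0364). Of the aryl hydrocarbon receptor genes, Ptges3 rose to 0.62 ± 0.20 and Arnt, at 0.18 ± 0.27, did not pass. With siSelT-1 alone Ptges3 did not pass (limma, adjusted p = 0.0511). Postn, Mafg, Me1, Akr1b8, Srxn1, Slc7a11, Keap1, Bach1, Ggt5, Blvra and Blvrb were named after their values were seen.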

How the data were processed

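Oligo-dT primed cDNA of knockdown (Cy5) and vector (Cy3) cells was compared on 4 two-colour arrays, per the labels. The authors deposited 1 log ratio per probe and array, here read as log2 of knockdown over vector from its range, the sample titles and the dyes. Base, background correction, normalization and filter are not given in the sources used here; base 10 would enlarge every fold, and a reversed ratio would turn every direction. Dyes were not swapped, so a dye effect and the knockdown cannot be told apart against vector.

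Of 22534 probes 18129 carried 1 gene name. A gene was the mean of its named probes with a value on all 4 arrays, which gave 4754 genes. The 2 construct means were estimated by limma 3.58.1 under R 4.3.3 (lmFit, eBayes; 2 residual degrees of freedom, both constructs sharing 1 spread), two-sided. Passing means p under 0.05 after Benjamini-Hochberg adjustment across every tested gene. Only the spread of the ratios enters the tests, so the vector cultures' own spread was not measured apart. If arrays shared vector RNA, their ratios against vector were not independent, and no test allows for this. The number of arrays limits the precision. The pipeline was tested on simulated data.

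Members and lists were chosen with earlier results of these data known. Named were all members and their relatives, up to 4 genes per list by smallest p, and the 4 genes nearest to Nfe2l2 and to Hmox1. Alternatives were centring, scaling, a looser filter, single probes, unnamed probes, robust eBayes, a replicate block and each array left out. Background correction and a filter on dim spots could not be varied from ratios.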

Additional observations from a re-analysis of the deposited data

Results flagged for a closer look

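Some results lay on one side of 0 on both arrays of siSelT-1 and on the other side on both arrays of siSelT-5. Of the 64 tested members and other pathway genes 7 did so, or 10.9%, beside 12.6% of all 4754 tested genes (13.7% after centring), so the share is near that of all genes. As differences of siSelT-1 minus siSelT-5 in limma, these were Ugt1a6a at -0.71 (adjusted p = 0.0557), Nadk at -0.54 (adjusted p = 0.0762), Sqstm1 at -0.46 (adjusted p = 0.153), Arnt at -0.46 (adjusted p = 0.0964), Ugdh at -0.39 (adjusted p = 0.133), Adh5 at -0.35 (adjusted p = 0.19) and Srxn1 at 0.20 (adjusted p = 0.399), none of which passed. The first Nqo1 probe differed by 0.65 (adjusted p = 0.0678 over all single probes) and did not pass either. A further Arnt probe with ratios for siSelT-5 alone stood at -1.71 and -1.87, opposite to the tested value and at the 3.86th percentile of such probes. Of the fibroblast markers, Postn differed by -2.42 and passed (adjusted p = 0.0219), and Dcn differed by -0.97 and did not (adjusted p = 0.0543).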

How the results depend on the processing

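Hmox1, Aldh3a1, Ephx1, Gclm and Abcc1 kept their direction under every alternative run and their call over both constructs under every one except without siSelT-1 replicate 1 (limma, adjusted p = 0.0515 to 0.0536). Over members and alternatives, 76 of 90 values kept direction and call, 8 lost the call, 3 gained it and 3 changed sign. The changes of sign were all of Nqo1, to 0.0175 without siSelT-1 replicate 1, to 0.0145 without siSelT-5 replicate 2 (range over arrays left out -0.0946 to 0.0175) and to 0.0001 for its first probe. With siSelT-1 alone 5 members passed, as did 650 of 4754 genes. These became 2 members and 67 of 6024 genes when a value on 1 array of each construct sufficed. With the replicate block they became 1 member and 35 of 4754 genes. Same-numbered arrays deviated together only weakly (Pearson r = 0.08 across 4754 genes, which are not independent replicates). The numbers were therefore not taken to pair the samples. The block left 6 members passing over both constructs, 6 with siSelT-5 and 0 for the difference, beside 2558, 2566 and 0 of 4754 genes. Leaving out each array gave 0 to 6 members over both constructs, 0 to 5 with siSelT-1, 6 with siSelT-5 each time, 0 to 2 for the difference and 0 to 38 of the other pathway genes. The lone array of a construct was then assumed to vary like the others. Causes were not tested. Signal over background is not held in ratios, so how far dim spots limit these values was not tested.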
